A study of Homo sapiens with 6 samples.

Results

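The genes described here are 59 genes that sense foreign RNA or DNA, that carry the interferon signal, or that interferon switches on, and they were picked by symbol from a table of 61806 genes. They were measured by RNA sequencing in U87-MG, a long-established line of human glioblastoma cells, in 3 libraries of the negative control (NC) with a wildtype genotype and 3 libraries labelled GRIK1 siRNA, numbered 1 to 3, with a GRIK1 knockdown genotype. GRIK1 encodes a subunit of the kainate type of glutamate receptor, and the comparison was made to ask which genes change when GRIK1 is reduced in glioblastoma cells. The title of each library names an siRNA while the series description names an shRNA, all libraries come from a single cell line, and whether the numbers 1 to 3 stand for replicates or for different siRNA sequences is not stated in the labels. Under its current symbol 58 of the genes were found, and RIGI was found under its older symbol DDX58.

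Double-stranded RNA from viruses or from the cell itself is recognised by RIG-I and MDA5 in the cytosol and by TLR3 in endosomes, while cGAS recognises cytosolic DNA. Their signals pass through the adaptors MAVS and STING to the kinases TBK1 and IKKε, which activate the factors IRF3 and IRF7 and so the interferon genes. Secreted interferon binds its receptors, and a complex that holds STAT2 and IRF9 then binds the interferon-stimulated response element (ISRE) in the promoters of effector genes such as the IFIT, OAS and MX families, which block viral replication.

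The number of reads counted on genes lay between 11099909 and 14006968 per library. NC library 3 stood apart from the other 5 libraries. Ribosomal protein genes took 9.37% of its counts and between 4.79% and 5.50% of the counts in the others, and its correlation with them over all tested genes lay between 0.952 and 0.968, against 0.990 between NC libraries 1 and 2 and between 0.989 and 0.992 within the libraries labelled GRIK1 siRNA. Results are therefore given with all libraries and, for the genes described, also without NC library 3. GRIK1 itself had counts of 18, 9 and 8 in NC libraries 1, 2 and 3, and of 15, 20 and 20 in the group labelled GRIK1 siRNA, a mean of 0.233 ± 0.131 FPKM (SD, n = 3) against 0.34 ± 0.0436 FPKM (SD, n = 3). A lower level of GRIK1 was thus not measured in the libraries named for its knockdown (0.12 higher on the log2(FPKM + 1) scale, two-sided exact permutation test, p = 0.4, where 0.1 is the smallest p that 3 libraries against 3 allow). With so few counts, a partial reduction could be neither shown nor excluded. Of 9 markers listed for a glioma line, 4 had a mean above 1 FPKM, VIM, CD44, S100A10 and CHI3L1, while SOX2, a neural stem cell factor, had a mean of 0.0467 FPKM and GFAP, the astrocyte filament, 0.172 FPKM. Of 8 immune cell markers, 6 were under 0.5 FPKM, AIF1 and CD3E had no count in any library, and CD68 and CSF1R were above 1 FPKM. Their summed level was 4.15 to 4.96 FPKM in the NC libraries against 5.19 to 5.59 FPKM in the others. The part of these markers in the results was not tested, and fewer cells of a type cannot be told apart from less RNA per cell.

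Levels are given as normalized FPKM, that is reads per kilobase of exon and scaled to sequencing depth, with the library total corrected by the TMM factor of edgeR, so that genes of different length and libraries of different composition can be compared. Most of the interferon genes were expressed at modest levels. For the following classes and for the choice of tested genes, the FPKM of the authors were used, without the TMM correction. Averaged over the 6 libraries, 10 genes reached 10 FPKM, 31 lay between 1 and 10 FPKM, 5 between 0.5 and 1 FPKM and 13 under 0.5 FPKM. The 46 genes that averaged 0.5 FPKM or more were tested and the 13 others were not. Among those 13 were genes commonly used as readouts of an interferon response, MX1, OAS1, OAS2, IFI27, XAF1, USP18 and RSAD2, and the DNA sensing pair CGAS and STING1.

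**Figure D1:**
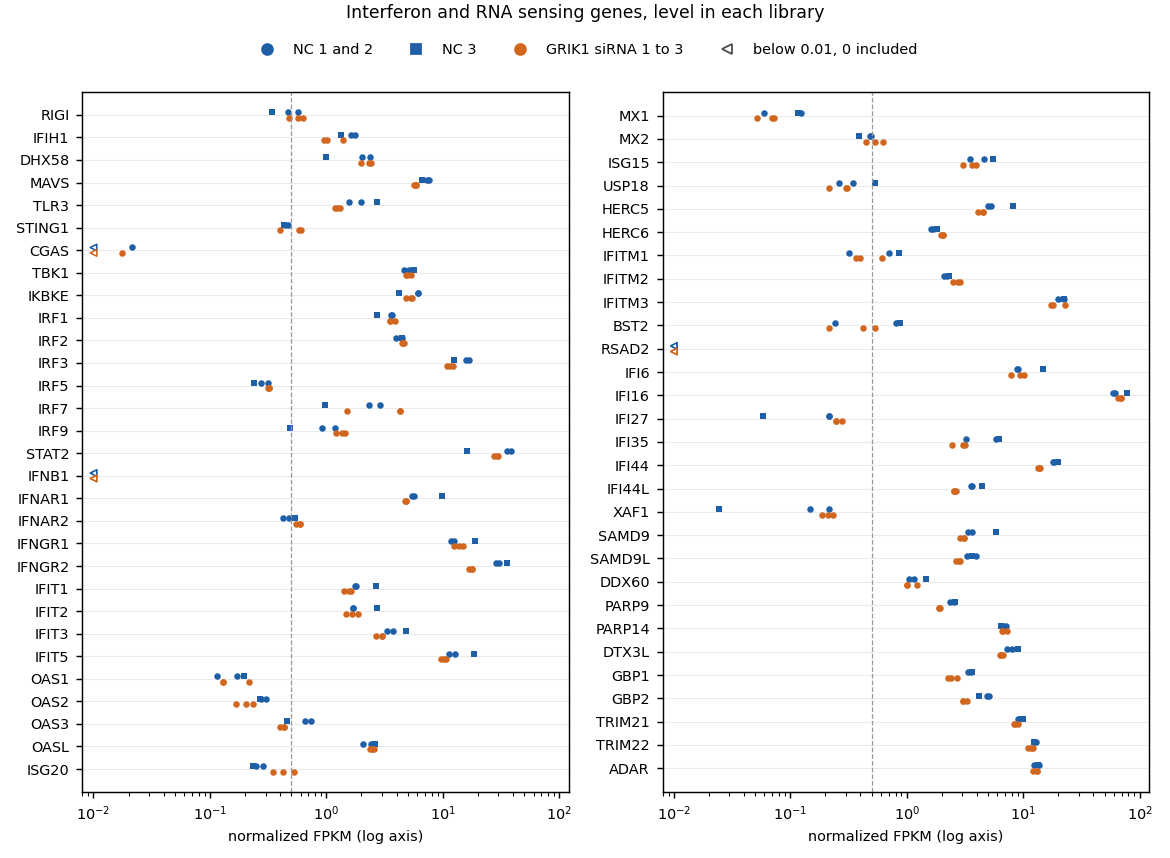
Level of each of the 59 genes in each library, as normalized FPKM on a log axis, with the NC libraries in blue (NC library 3 as a square), the libraries labelled GRIK1 siRNA in orange, levels below 0.01 as triangles at the left edge, and a dashed line at 0.5 FPKM. IFI16, STAT2 and IFNGR2 lie highest, IFNB1 and RSAD2 have no count in any library, and 13 genes have a mean to the left of the line.

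The 46 tested genes were lower more often than higher in the libraries labelled GRIK1 siRNA, by small amounts. The difference between groups was tested with the quasi-likelihood test of edgeR over all 15870 genes that averaged 0.5 FPKM or more, with Benjamini-Hochberg adjustment over all of them. The log2 fold change (libraries labelled GRIK1 siRNA minus NC) was negative for 34 genes and positive for 12, with a median of -0.29 and a range from -0.84 to 0.71, beside a median of -0.02 over all tested genes. A single gene, IFNGR2, had an adjusted p under 0.05, which is 2.17% of the 46 beside 3.09% of all tested genes. None was called differentially expressed, for which the adjusted p had to be under 0.05 and the change more than 2-fold (over 1 on the log2 scale) in either direction, beside 1.41% of all tested genes, and DESeq2 called none of them either. At an adjusted p under 0.05 and any fold, DESeq2 on all 6 libraries gave 6 genes, TLR3, IFNGR2, IFI44, IFI44L, GBP1 and GBP2, and edgeR without the filter on low levels gave 4, TLR3, IFNGR2, IFI44L and GBP2, each of them lower. Unless DESeq2 is named, the values for single genes are from edgeR with the filter. At an unadjusted p under 0.05 there were 16 genes lower (34.8%, beside 13.2% of all tested genes) and 0 higher (beside 12%). All 3 libraries labelled GRIK1 siRNA lay below all 3 NC libraries for 20 genes (43.5%, beside 19.1% of all tested genes) and above them for 4 (8.70%, beside 19.3%), and the groups overlapped for 22.

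**Figure D2:**
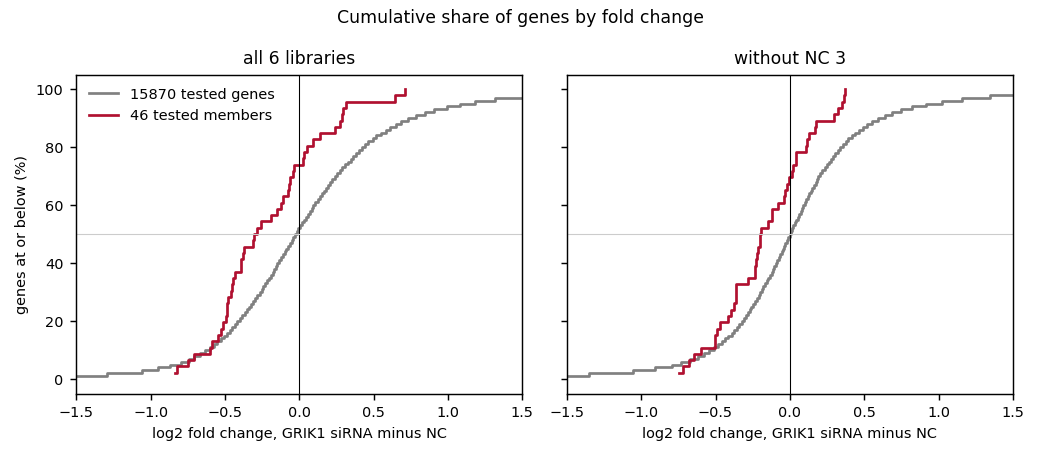
Cumulative share of genes, in percent, by log2 fold change for the 46 tested interferon genes (red) and for all 15870 tested genes (grey), with all 6 libraries on the left and without NC library 3 on the right. The red curve runs to the left of the grey one through its middle part, with a median of -0.29 against -0.02 on the left and of -0.20 against 0.01 on the right, and its ends reach less far than those of the grey curve.

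Without NC library 3 the spread among the remaining libraries was smaller, with a common dispersion of 0.00298 in place of 0.0391, and many more genes of every kind passed the threshold. An adjusted p under 0.05 was then reached by 18 of the 46 genes (39.1%), close to the 35.2% of all tested genes. By direction, 17 were lower (37%, beside 18.3% of all tested genes) and 1 was higher (2.17%, beside 16.9%). Again none changed more than 2-fold, beside 3.09% of all tested genes called. The log2 fold changes were negative for 32 genes and positive for 14, with a range from -0.74 to 0.37. The 17 lower genes were IFIH1, MAVS, TLR3, IRF3, STAT2, IFNAR1, IFNGR2, IFIT5, OAS3, IFI35, IFI44, IFI44L, SAMD9L, PARP9, DTX3L, GBP1 and GBP2, and the higher one was IFI16. DESeq2 on the same 5 libraries gave 12 genes, 11 lower and 1 higher, each of them among the 18. The gap between the median of the interferon genes and that of all tested genes was present in both fits. The medians were -0.29 beside -0.02 with all libraries and -0.20 beside 0.01 without NC library 3. The fits share 5 libraries and are not independent of each other. The number of genes that pass a threshold rested on NC library 3.

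**Figure D3:**
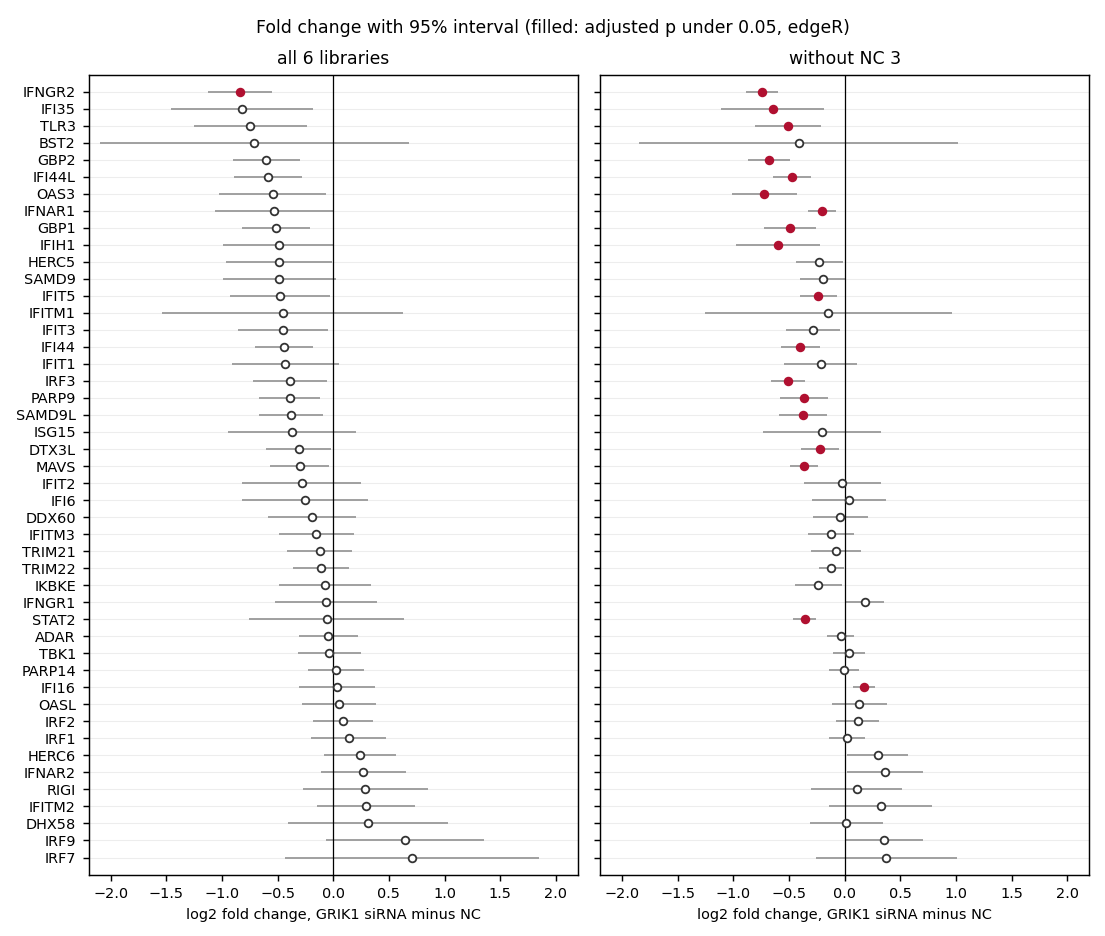
Log2 fold change (libraries labelled GRIK1 siRNA minus NC) of the 46 tested genes with its 95% confidence interval from edgeR, with all 6 libraries on the left and without NC library 3 on the right. Filled red points have an adjusted p under 0.05, which is IFNGR2 alone on the left and 18 genes on the right, of which IFI16 alone lies to the right of 0.

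Among the sensors, the receptors of double-stranded RNA were detected at low levels. TLR3, the endosomal receptor, measured 1.55, 1.99 and 2.72 FPKM in NC libraries 1, 2 and 3 and 1.30, 1.19 and 1.24 FPKM in libraries 1, 2 and 3 labelled GRIK1 siRNA. The groups did not overlap, and NC library 3 was the highest. Its log2 fold change was -0.75 (SE 0.22, adjusted p = 0.102), and -0.51 (SE 0.14, adjusted p = 0.00891) without that library. IFIH1, which encodes MDA5, the sensor of long double-stranded RNA, measured 1.76, 1.64 and 1.33 FPKM against 0.957, 1.40 and 1.02 FPKM. Library 2 of the group labelled GRIK1 siRNA lay above NC library 3, so the groups overlapped. Its log2 fold change was -0.49 (SE 0.21, adjusted p = 0.204), and -0.60 (SE 0.18, adjusted p = 0.0152) without NC library 3.

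The other cytosolic RNA sensors had positive values. RIGI, which encodes RIG-I, the sensor of RNA with a 5′ triphosphate, measured 0.574, 0.466 and 0.341 FPKM against 0.574, 0.631 and 0.477 FPKM, with a log2 fold change of 0.29 (SE 0.24, adjusted p = 0.475), and of 0.11 (SE 0.19, adjusted p = 0.716) without NC library 3. DHX58 encodes LGP2, which tunes signalling by MDA5 and RIG-I, and measured 2.04, 2.38 and 0.985 FPKM against 2.31, 1.97 and 2.41 FPKM. NC library 3 was the one low value, and the log2 fold change of 0.31 (SE 0.31, adjusted p = 0.548) became 0.01 (SE 0.16, adjusted p = 0.956) without it. CGAS, the DNA sensor, had 1 count in NC library 1, 1 in library 3 labelled GRIK1 siRNA and 0 in the other 4 libraries. STING1, the adaptor next to it in that route, had counts of 24, 25 and 26 against 37, 25 and 38, under the minimum for the test.

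MAVS, the mitochondrial adaptor through which RIG-I and MDA5 both signal, was the highest of the sensors and adaptors. Its levels were 7.65, 7.35 and 6.56 FPKM in the NC libraries against 5.92, 5.68 and 5.85 FPKM. The libraries labelled GRIK1 siRNA were close to each other and below each NC library, with a log2 fold change of -0.30 (SE 0.11, adjusted p = 0.160) with all libraries and of -0.36 (SE 0.06, adjusted p = 0.000118) without NC library 3. The kinases that MAVS and STING activate differed less. TBK1 measured 4.61, 5.12 and 5.65 FPKM against 4.90, 5.28 and 4.81 FPKM, and IKBKE, which encodes IKKε, 6.13, 6.15 and 4.16 FPKM against 5.36, 5.38 and 4.86 FPKM. Both overlapped between the groups. The log2 fold change of TBK1 was -0.04 (SE 0.12, adjusted p = 0.870) and turned to 0.04 without NC library 3, while that of IKBKE was -0.07 (SE 0.18, adjusted p = 0.817) and -0.24 (adjusted p = 0.0788) without it.

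Of the factors that these kinases and the receptors activate, IRF3 was lower and IRF7 and IRF9 had positive values. IRF3, which is present before infection and starts the transcription of interferon beta, measured 16.8, 15.9 and 12.6 FPKM against 11.5, 10.9 and 12.1 FPKM. The groups did not overlap, though NC library 3 and library 3 labelled GRIK1 siRNA were close. Its log2 fold change was -0.39 (SE 0.14, adjusted p = 0.152), and -0.51 (SE 0.07, adjusted p = 3.31e-05) without NC library 3. BCL2L12, on the opposite strand, overlaps IRF3 and had 697 counts over all libraries. Without a stated strand setting the reads in the overlap cannot be told apart.

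STAT2, the partner of IRF9 in the complex that binds the ISRE, was one of the most abundant of these genes, and its value depended on NC library 3. It measured 38.2, 35.8 and 16.0 FPKM in the NC libraries against 29.9, 27.5 and 28.9 FPKM. NC library 3 had the lowest value of all and NC libraries 1 and 2 the highest. The log2 fold change was -0.06 (SE 0.30, adjusted p = 0.916) with all 6 libraries, and -0.36 (SE 0.05, adjusted p = 2.52e-05) without NC library 3, at 77.9% of the NC level. IRF9 measured 1.18, 0.925 and 0.483 FPKM against 1.35, 1.21 and 1.46 FPKM. Here the libraries labelled GRIK1 siRNA lay above each NC library, and the log2 fold change of 0.64 (SE 0.31, adjusted p = 0.234) became 0.35 (SE 0.17, adjusted p = 0.114) without NC library 3.

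IRF7, the factor that amplifies interferon production, was the gene with the widest spread within the group labelled GRIK1 siRNA among the IRF genes. Its levels were 2.34, 2.87 and 0.982 FPKM in the NC libraries against 1.496, 4.32 and 4.26 FPKM. Libraries 2 and 3 labelled GRIK1 siRNA were above each NC library while library 1 was below NC libraries 1 and 2, a ratio of 2.89 between the highest and the lowest of the group. The log2 fold change of 0.71 was the highest of the 46 genes and had a SE of 0.49 (adjusted p = 0.387). It was 0.37 (SE 0.30, adjusted p = 0.369) without NC library 3, the lowest of all libraries. IRF1 measured 3.57, 3.62 and 2.74 FPKM against 3.55, 3.88 and 3.49 FPKM, and IRF2, its antagonist, 3.94, 4.44 and 4.42 FPKM against 4.42, 4.67 and 4.52 FPKM. Their log2 fold changes were 0.14 (SE 0.14) and 0.09 (SE 0.12), with adjusted p-values of 0.567 and 0.648, and without NC library 3 they were 0.02 (SE 0.08) and 0.12 (SE 0.09). IRF5, a factor mostly of immune cells, stayed between 0.237 and 0.322 FPKM in all libraries and was not tested.

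Interferon itself was not detected. IFNB1, the gene of interferon beta, had 0 counts in each library, where a count of 0 still allows up to 3 counts, or 0.255 to 0.322 FPKM depending on the library. The 21 interferon genes that were looked up, which hold the alpha family, IFNB1, IFNE, IFNK, IFNW1, IFNG and 3 lambda genes, all had 0 counts in all 6 libraries. Of these, 16 are among 57 genes with a symbol that start between the starts of SLC24A2 and CLIC4P1 on chromosome 9 (GRCh38). Of those 57 genes, 49 had no count at all and the highest sum over the 6 libraries was 10 counts. SLC24A2 and CLIC4P1 were the nearest genes on either side of IFNB1 with at least 40 summed counts (1392 and 48). Sums under 40 between them therefore follow from how the borders were set, while the 49 genes at 0 and the highest sum of 10 do not. This stretch also holds MTAP (10 summed counts), FOCAD (6), KLHL9 (6), CDKN2A (6), CDKN2B (4) and HACD4 (0). The cause of the low counts was not tested. IFNK, IFNG and the lambda genes lie outside this stretch.

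The receptors were expressed, and the receptor chain IFNGR2 had the lowest adjusted p of the 46 genes. IFNGR2 (ENSG00000159128, on the plus strand of chromosome 21 from 33403413) encodes the second chain of the receptor for interferon gamma, which recruits the kinase JAK2. Its levels were 28.6, 30.1 and 35.3 FPKM in NC libraries 1, 2 and 3 and 17.9, 17.8 and 16.9 FPKM in the libraries labelled GRIK1 siRNA 1, 2 and 3. All 3 of the latter lay well below the lowest NC library and within 1.06-fold of each other. IFNGR2 fell by 0.84 on the log2 scale (SE 0.12, 95% interval from -1.13 to -0.55, adjusted p = 0.0303), to 55.9% of its NC level, and without NC library 3 the log2 fold change was -0.74 (SE 0.07, adjusted p = 1.82e-07). Leaving out NC library 1 or 2 or library 1, 2 or 3 labelled GRIK1 siRNA gave an adjusted p between 0.0677 and 0.206. TMEM50B lies on the opposite strand and overlaps IFNGR2, with 6293 counts over the 6 libraries, and reads in the overlap cannot be assigned without strand.

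IFNGR1, the chain that binds interferon gamma, overlapped between the groups. It measured 11.8, 12.4 and 18.8 FPKM in the NC libraries against 12.4, 13.7 and 14.8 FPKM, with NC library 3 the highest. With all libraries the log2 fold change was -0.07 (SE 0.20, adjusted p = 0.845) and turned to 0.18 (SE 0.08, adjusted p = 0.108) without it. Of the chains of the type I receptor, IFNAR1 measured 5.64, 5.48 and 9.77 FPKM against 4.73, 4.87 and 4.86 FPKM, and IFNAR2 0.479, 0.425 and 0.537 FPKM against 0.597, 0.553 and 0.589 FPKM. The groups did not overlap for either, IFNAR1 with lower values and IFNAR2 with higher ones in the libraries labelled GRIK1 siRNA. For IFNAR1 the log2 fold change was -0.53 (SE 0.23, adjusted p = 0.199) and shrank to -0.20 (SE 0.06, adjusted p = 0.0127) without NC library 3, its highest library. For IFNAR2 it was 0.27 (SE 0.17, adjusted p = 0.334), and 0.36 (SE 0.16, adjusted p = 0.0942) without that library. IFNAR1 and IFNGR2 are neighbours on chromosome 21, 43548 bases apart.

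The ISRE was looked for in the promoters, and some of these sequences are shown for genes with low log2 fold changes, for RSAD2, which was not detected, and for IFNGR2. In RefSeq promoters of GRCh38.p14, each from 250 bases before to 50 after a start, 44 of the 59 genes were matched. The letters GAAANNGAAA on either strand, a plain form of the ISRE, were found in a promoter of 25 of them (56.8%), beside 4.38% of all symbols, and in 3.57% of all promoters. The letters TTCNNNGAA, a plain form of the gamma-activated site through which interferon gamma acts, were found for 12 of the 44 (27.3%), beside 9.38% of all symbols. Matches of the 2 forms may overlap each other. A match is a description of the letters and does not show that a factor binds there. The following stretches lie before a start, 5′ to 3′ along the gene's strand, with the ISRE letters in capitals.

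IFIT5, chr10:89414508-89414567, plus strand: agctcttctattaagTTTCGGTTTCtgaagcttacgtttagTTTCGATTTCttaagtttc

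IFIT1, chr10:89392492-89392544, plus strand: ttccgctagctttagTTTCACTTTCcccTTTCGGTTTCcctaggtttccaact

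IFI44, chr1:78649756-78649795, plus strand: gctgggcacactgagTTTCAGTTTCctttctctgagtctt

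IFI44L, chr1:78620274-78620303, plus strand: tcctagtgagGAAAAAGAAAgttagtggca

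GBP1, chr1:89065316-89065345, minus strand: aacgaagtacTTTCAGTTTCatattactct

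PARP9, chr3:122564322-122564351, minus strand: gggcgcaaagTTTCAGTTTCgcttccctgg

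IFIH1, chr2:162318686-162318715, minus strand: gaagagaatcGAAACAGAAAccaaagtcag

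RSAD2, chr2:6877622-6877651, plus strand: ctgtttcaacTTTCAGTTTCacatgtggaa

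IFNGR2, chr21:33403293-33403412, plus strand: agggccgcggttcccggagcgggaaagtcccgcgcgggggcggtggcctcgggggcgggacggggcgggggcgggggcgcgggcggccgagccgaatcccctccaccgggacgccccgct

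IFIT1 and IFIT5 each carry the letters at 2 places, IFIT5 at 45 and 19 bases before its start. In IFI44L a stretch of 40 bases around the match occurs at 2 places of the same promoter. RSAD2, which encodes viperin, carries the same 10 capital letters as IFI44, GBP1 and PARP9 but had no count in any library, while IFI44 was above 13 FPKM in each. The stretch shown for IFNGR2, the gene with the lowest adjusted p, is rich in G and C and holds 0 matches to either form. It covers only the 120 bases before the start, less than the promoters counted above. Among the tested genes, the 21 with the ISRE letters in a promoter had log2 fold changes with a median of -0.45, 20 of them negative, and the 15 matched genes without them had a median of -0.06 with 10 negative. Without NC library 3 these medians were -0.23 and -0.04, with 20 and 8 negative. An adjusted p under 0.05 in that fit was reached by 9 of the 21 (all lower) and by 7 of the 15 (6 lower and 1 higher), beside 35.2% of all tested genes, 18.3% lower and 16.9% higher. The difference between these 2 sets was not tested, since it was looked at after the values were known.

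Of the IFIT family, whose proteins bind viral RNA ends, all 4 genes had negative log2 fold changes, from -0.48 to -0.29, and none passed the test with all libraries. IFIT5 was the highest, at 11.3, 12.8 and 18.6 FPKM in the NC libraries against 9.57, 10.6 and 10.3 FPKM. The groups did not overlap, and NC library 3 was far above the rest. Its log2 fold change of -0.48 (SE 0.19, adjusted p = 0.180) was -0.24 (SE 0.08, adjusted p = 0.0258) without that library. IFIT1, IFIT2 and IFIT3 lay between 1.42 and 4.84 FPKM, each with its highest value in NC library 3, and none of them passed the test without it, where their log2 fold changes were -0.21, -0.02 and -0.28. These 3 genes overlap LIPA on the opposite strand, which had 8448 counts, and reads of close copies within the family may also be split by the counting.

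The OAS genes, whose products make the messenger that activates RNase L, were low apart from OASL. OAS3 measured 0.737, 0.654 and 0.457 FPKM in the NC libraries against 0.433, 0.430 and 0.400 FPKM, so the groups did not overlap but came close at NC library 3. Its log2 fold change was -0.55 (SE 0.21, adjusted p = 0.162), and -0.72 (SE 0.14, adjusted p = 0.000560) without NC library 3. OASL, at 2.08 to 2.61 FPKM, had a log2 fold change of 0.05, and of 0.13 without NC library 3. OAS1 and OAS2 stayed under 0.31 FPKM in each library, as did MX1, and MX2 under 0.63 FPKM, and these were not tested. ISG20, a nuclease that degrades single-stranded RNA, was the one untested gene with an unadjusted p under 0.05 when the filter on low levels was left out (log2 fold change 0.73, adjusted p = 0.227 in edgeR), at 0.247, 0.286 and 0.234 FPKM against 0.348, 0.523 and 0.420 FPKM. Without the filter 11 of the 13 could be fitted, and none had an adjusted p under 0.05. Their log2 fold changes ran from -0.65 (MX1) to 0.73 (ISG20). They were positive for ISG20, XAF1, IFI27, MX2, STING1 and IRF5, and negative for MX1, USP18, OAS2, CGAS and OAS1.

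The IFI genes held both the most abundant member and some of the lowest log2 fold changes. IFI16, a nuclear protein that binds DNA, measured 59.1, 61.2 and 78.2 FPKM in the NC libraries against 65.6, 68.7 and 68.6 FPKM. NC library 3 was highest and NC libraries 1 and 2 were lowest, so the log2 fold change was 0.03 (SE 0.15, adjusted p = 0.901) with all libraries and 0.17 (SE 0.05, adjusted p = 0.00819) without NC library 3. IFI44 measured 17.9, 18.5 and 19.9 FPKM against 13.5, 13.8 and 14.0 FPKM. The values within each group were close, including NC library 3, and the groups stood well apart, with a log2 fold change of -0.45 (SE 0.11, adjusted p = 0.0748) and of -0.40 (SE 0.08, adjusted p = 0.00132) without NC library 3. IFI44L, its neighbour 3650 bases away, measured 3.57, 3.59 and 4.45 FPKM against 2.56, 2.64 and 2.54 FPKM. It showed the same separation, with a log2 fold change of -0.58 (SE 0.13, adjusted p = 0.0602) and of -0.47 (SE 0.08, adjusted p = 0.000212) without NC library 3.

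IFI35 had a large value but a wide spread. It measured 5.84, 3.19 and 6.22 FPKM in the NC libraries against 3.15, 2.43 and 3.05 FPKM, so that NC library 2 lay next to the libraries labelled GRIK1 siRNA. IFI35 had a log2 fold change of -0.82 (SE 0.27, adjusted p = 0.131), and -0.65 (SE 0.22, adjusted p = 0.0276) without NC library 3. IFI6, a mitochondrial protein, lay between 7.79 and 14.8 FPKM with the highest value in NC library 3, and its log2 fold change of -0.25 turned to 0.04 without it. IFI27 had counts of 10, 10 and 3 against 13, 15 and 14, and XAF1 of 16, 11 and 2 against 18, 16 and 21, so both were lowest in NC library 3.

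GBP1 and GBP2 encode guanylate-binding proteins, GTPases that interferon gamma induces strongly, and both genes were lower in each library labelled GRIK1 siRNA. GBP2 measured 4.87, 5.11 and 4.16 FPKM in the NC libraries against 3.03, 3.02 and 3.26 FPKM, with a log2 fold change of -0.60 (SE 0.13, adjusted p = 0.0536). GBP1 measured 3.35, 3.53 and 3.597 FPKM against 2.41, 2.24 and 2.68 FPKM, with a log2 fold change of -0.51 (SE 0.13, adjusted p = 0.0763). Neither group overlapped the other for these genes, and both missed the threshold in edgeR with all libraries, while DESeq2 gave them an adjusted p of 0.00585 (GBP2) and 0.0309 (GBP1). Without NC library 3 their log2 fold changes were -0.68 (adjusted p = 1.51e-05) and -0.49 (adjusted p = 0.00219). The genes lie 40771 bases apart on chromosome 1 and are close copies of each other, so reads may be shared between them. GBP3, of the same family and on the list of other pathway genes, was named after its values were seen and lay the other way, at 0.807, 0.918 and 0.673 FPKM in the NC libraries against 0.967, 1.18 and 1.05 FPKM. Its log2 fold change was 0.42 (SE 0.21, adjusted p = 0.259), and 0.31 (SE 0.22, adjusted p = 0.294) without NC library 3. GBP4 and GBP5, on that list too, were too low to be tested and had lower means in the libraries labelled GRIK1 siRNA. GBP5 averaged 0.225 FPKM in the NC libraries against 0.141 FPKM, without overlap. GBP4 averaged 0.185 FPKM against 0.112 FPKM, with overlap. The TRIM ubiquitin ligases of the same set differed less. TRIM22 measured 12.8, 12.4 and 12.3 FPKM against 10.9, 12.2 and 11.6 FPKM, with a log2 fold change of -0.11 (SE 0.11, adjusted p = 0.545), and TRIM21 lay between 8.30 and 9.90 FPKM with -0.12 (SE 0.12). These were -0.12 (SE 0.05, adjusted p = 0.0998) and -0.08 (SE 0.11) without NC library 3.

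The pair PARP9 and DTX3L, an ADP-ribosyltransferase and the ubiquitin ligase it works with, are read from opposite strands and overlap by 240 bases at their starts. PARP9 measured 2.52, 2.37 and 2.58 FPKM against 1.89, 1.88 and 1.92 FPKM, and DTX3L 8.02, 7.22 and 8.99 FPKM against 6.30, 6.76 and 6.48 FPKM. Both were lower in each library labelled GRIK1 siRNA, with log2 fold changes of -0.39 (SE 0.12, adjusted p = 0.108) and -0.31 (SE 0.13, adjusted p = 0.182). Without NC library 3 these were -0.36 (adjusted p = 0.00971) and -0.22 (adjusted p = 0.0400). PARP14 measured 7.08, 6.74 and 6.50 FPKM against 6.63, 7.27 and 6.73 FPKM and overlapped, with a log2 fold change of 0.02. SAMD9 and SAMD9L, which restrict poxviruses, had log2 fold changes of -0.49 and -0.38. SAMD9L alone of the pair had an adjusted p under 0.05 without NC library 3 (-0.38, adjusted p = 0.00763), whereas SAMD9 had -0.19 there (adjusted p = 0.146).

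The genes of the ISG15 system, a ubiquitin-like modifier with its ligases and protease, and the membrane restriction factors did not pass the test in either fit. ISG15 lay between 3.06 and 5.55 FPKM and HERC5, its ligase, between 4.10 and 8.16 FPKM, with log2 fold changes of -0.37 and -0.49 that became -0.20 and -0.23 without NC library 3, the highest library for both. HERC6 had 0.24, and 0.30 without that library. IFITM2 measured 2.10, 2.23 and 2.29 FPKM against 2.87, 2.48 and 2.75 FPKM, higher in each library labelled GRIK1 siRNA, with a log2 fold change of 0.29 (SE 0.19, adjusted p = 0.358) and of 0.32 (SE 0.22, adjusted p = 0.275) without NC library 3. IFITM3, which blocks viral entry, measured 20.0, 22.3 and 22.5 FPKM against 22.9, 18.2 and 17.2 FPKM, with a log2 fold change of -0.15 (SE 0.14, adjusted p = 0.531), and of -0.12 (SE 0.10) without NC library 3. Library 1 labelled GRIK1 siRNA was the highest of all and the other 2 were the lowest. IFITM1 to IFITM3 are close copies whose reads may be shared. BST2, which encodes tetherin, had few reads, 3, 10 and 12 counts in the NC libraries against 3, 6 and 8, and its log2 fold change of -0.71 had a SE of 0.60 (adjusted p = 0.474). This became -0.41 (SE 0.68, adjusted p = 0.686) without NC library 3. ADAR, which edits double-stranded RNA so that the sensors do not see it, measured 13.8, 12.4 and 13.3 FPKM against 13.1, 12.0 and 13.1 FPKM. Its values overlapped, with a log2 fold change of -0.04 (SE 0.11, 95% interval from -0.30 to 0.22, adjusted p = 0.826), and of -0.04 (SE 0.06) without NC library 3.

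**Figure D4:**
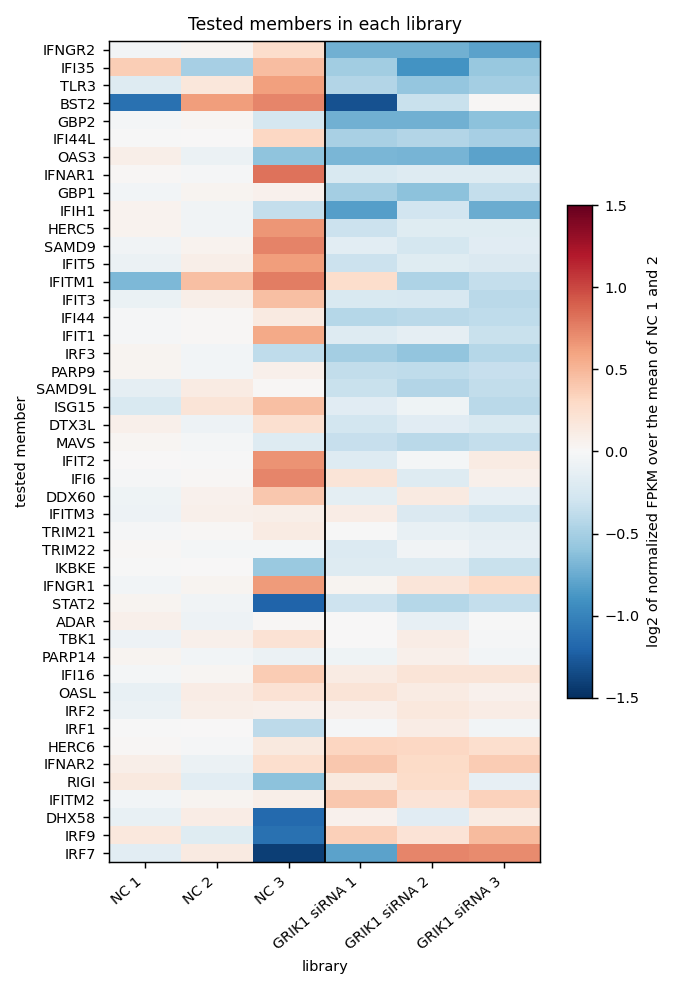
Level of each of the 46 tested genes in each library as log2 of the normalized FPKM over the mean of NC libraries 1 and 2, with blue for lower and red for higher, in order of log2 fold change over all 6 libraries. The 3 libraries labelled GRIK1 siRNA are blue for most genes in the upper part, while the column of NC library 3 holds both dark blue, at IRF7, STAT2, DHX58 and IRF9, and red for genes such as IFNAR1 and SAMD9.

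NC library 3 moved these genes in both directions. Against the mean of NC libraries 1 and 2, it was over 1.5-fold lower for 6 of the 46 genes (13%, beside 25.1% of all tested genes) and over 1.5-fold higher for 10 (21.7%, beside 18.9%), with a median log2 difference of 0.14 beside -0.02 for all tested genes. The lowest were IRF7 at -1.41, STAT2 at -1.21, DHX58 at -1.17 and IRF9 at -1.12, of which STAT2 and IRF9 are parts of the same complex. The log2 fold change changed sign without NC library 3 for 4 genes, TBK1, IFNGR1, IFI6 and PARP14, each by less than 0.30.

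The other genes of the pathway were taken from a list of 66, which holds kinases of interferon signalling, further sensors and adaptors, and other effectors. Of the 51 tested, none had an adjusted p under 0.05 in edgeR with all libraries and neither edgeR nor DESeq2 called any, while 5 were lower (9.80%, beside 13.2% of all tested genes) and 3 higher (5.88%, beside 12%) at an unadjusted p under 0.05. The groups did not overlap for 11 lower and 9 higher genes, 21.6% and 17.6% of the 51 beside 19.1% and 19.3% of all tested genes, and the median log2 fold change was -0.06. Without NC library 3 an adjusted p under 0.05 was reached by 12 lower (23.5%, beside 18.3% of all tested genes) and 8 higher genes (15.7%, beside 16.9%), with a median of -0.03. EIF2AK2, which encodes the kinase PKR, was chosen for mention after its values were seen. It measured 6.51, 7.08 and 10.9 FPKM in the NC libraries against 6.22, 6.97 and 7.11 FPKM, so that NC library 3 alone stood out. The log2 fold change of EIF2AK2 was -0.27 (SE 0.20, adjusted p = 0.426), and less than 0.01 in size without that library.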

How the data were processed

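Total RNA of U87-MG cells was sequenced in 6 libraries, 3 NC and 3 labelled GRIK1 siRNA, each placed in its group by its title. Per the labels, reads were trimmed with cutadapt 1.9.1, and HISAT2 and HTSeq were used with GRCh38. The strand setting is not given in the sources used here. The authors deposited whole-number counts per gene without normalization, and FPKM values that they computed from them. The FPKM equalled the count over exonic size and library total for 100% of the values. No column of values was left unassigned, and no 2 libraries agreed within sampling noise. Coordinates are those of the table (GRCh38) or of RefSeq promoters (GRCh38.p14).

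Genes that averaged 0.5 FPKM or more in the values of the authors were tested in edgeR 4.0.16 (R 4.3.3) by its quasi-likelihood method. TMM factors were used, with Benjamini-Hochberg adjustment over all of these genes. Normalized FPKM used the library total times the TMM factor. GRIK1 was compared on log2(FPKM + 1), which understates the change of low genes, with an exact permutation test in scipy 1.17.1. Counts behind a level of 0 may reach 3 (95% limit), which covers counting error only. The scripts were tested on simulated counts of 15870 genes with 200 changed, at an adjusted p under 0.05. With 6 libraries, edgeR found 62 of 100 simulated 2-fold changes with 6 false calls, and DESeq2 81 of 100 with 26 false calls. Without NC library 3, edgeR found 100 of 100 with 7 false calls, and DESeq2 96 of 100 with 6. The changed genes were drawn only from those above a minimum count, and no simulated library stood apart as NC library 3 did. These rates therefore do not hold for genes with few counts or for changes under 2-fold. The genes described and the other lists were chosen with earlier results of these data known. Full statistics were given for tested genes with an adjusted p under 0.05, the 5 largest rises and falls, the 10 highest levels, and all sensors, adaptors, kinases, IRF genes, STAT2 and receptors. The others named were chosen after their values were seen. Nothing in the labels says that libraries of a group came from separate cultures, so p-values measure only the spread between these libraries.

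The alternatives were DESeq2 1.42.0, median-of-ratios (RLE) scaling, no filter or a mean of at least 1 FPKM, a robust fit, the replicate number as a block, a fold threshold of 1.5, a pseudocount of 0.1 for GRIK1, and leaving out each library. DESeq2 and RLE scaling without NC library 3 were added after seeing the data.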

Additional observations from a re-analysis of the deposited data

How the results depend on the processing

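None of the interferon genes was called under any alternative at the 2-fold threshold, and with a fold threshold of 1.5 there was 1, IFNGR2. The number with an adjusted p under 0.05 was 1 with all libraries, 1 with RLE scaling, a robust fit or a minimum of 1 FPKM, 6 with DESeq2, 4 without a filter (57 genes fitted), and 0 to 18 when each library was left out in turn, with the 18 without NC library 3 and 0 without any other. Without NC library 3, DESeq2 gave 12 and RLE scaling 18. The median log2 fold change stayed between -0.33 and -0.20 in all alternatives, and that of GRIK1 stayed above 0. With the replicate number as a block, 0 genes had an adjusted p under 0.05 (12 unadjusted), and IFNGR2 had 0.0952. Same-numbered libraries of the 2 groups did not deviate together (correlations of -0.07, 0.04 and -0.04), so the numbers were not taken as pairs, and not every library correlated best with its own number. Of 374 alternative values for 27 genes, 321 kept their direction and side of the threshold, 34 passed it newly, 6 no longer passed (all IFNGR2), and 13 turned sign in 5 genes near 0. Over the fits that leave out a library, TBK1 ran from -0.104 to 0.0402 (the latter without NC library 3), IKBKE from -0.237 to 0.0184, STAT2 from -0.36 to 0.155, IFNGR1 from -0.188 to 0.179 and IFI16 from -0.038 to 0.172. The sign turned for TBK1 and IFNGR1 without NC library 3 (0.0421 and 0.181 with DESeq2 or RLE scaling there), and for IKBKE (0.0172 and 0.0184), IFI16 (-0.038 and -0.0187) and STAT2 (0.155 and 0.0866) without NC library 1 or 2. STAT2 was also at 0.0342 with the block. The cause of these changes was not tested. With 3 libraries a group, the spread between NC library 3 and the others limits what could be detected.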
